A study of Mus musculus with 9 samples.

Results

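The Notch and secretory fate regulators examined are 10 genes, chosen by name for their place in 1 signalling pathway, out of 54838 mouse gene identifiers measured. Earlier results of these data were known when the genes were chosen. They are the receptors *Notch1* and *Notch2*, the ligands *Dll1*, *Dll4* and *Jag1*, the Notch target *Hes1*, and the transcription factors *Atoh1*, *Gfi1*, *Spdef* and *Foxa3* of the secretory lineage. Every member was found in the data. RNA was sequenced from organoids, cultures of epithelium grown from crypts of the small intestine of mice with floxed *Mettl3* (*Mettl3* fl/fl) and *Vil-CreERT2*. In these mice the villin promoter drives a Cre recombinase in intestinal epithelium, and 4-OHT (4-hydroxytamoxifen) switches this recombinase on to excise part of *Mettl3*, which encodes an RNA methyltransferase. The mice used for organoids were males of 2 to 4 months. The solvent EtOH or 4-OHT at 500 nM was given for 2 days. DMSO or Nec-1 (necrostatin-1, an inhibitor of the kinase RIPK1) was given for 5 days. The groups were EtOH DMSO (2 libraries), EtOH Nec-1 (2), 4-OHT DMSO (2) and 4-OHT Nec-1 (1). All groups carry the floxed alleles and the recombinase, and no group received 4-OHT without the recombinase, so the drug and the deletion cannot be told apart. Nothing in the sources says whether libraries of a group come from separate cultures or animals, and p-values therefore measure only the spread between these libraries.

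*Mettl3*, the targeted gene, did not fall with 4-OHT. In the EtOH libraries its FPKM (fragments per kilobase of transcript, scaled to the number of mapped fragments) was 2.70 and 2.71 with DMSO and 2.41 and 2.47 with Nec-1. In the libraries labelled 4-OHT it was 3.72 and 4.14 with DMSO and 3.36 with Nec-1. A value per gene does not separate transcripts with and without the excised part, and directions given for 4-OHT rest on the labels. Epithelial markers were present, and of 22 markers of fibroblasts, immune cells and endothelium 20 were too low to be tested. Of the other 2, *Cd68* was at 0.774 and 2.01 FPKM in EtOH DMSO, at 5.69 and 7.72 in 4-OHT DMSO and at 6.14 in 4-OHT Nec-1 (log2 fold change between the DMSO groups 1.73, limma adjusted p = 0.00689). *Itgam* did not pass. The summed FPKM of the 9 immune markers was 2.87 to 3.37 in EtOH DMSO and 6.35 to 8.78 in 4-OHT DMSO, with *Ptprc*, which marks all leukocytes, at or under 0.0497 in every library. The part of *Cd68* in the results below was not tested. The sum of FPKM in a library ranged from 450207 to 498712, and the number of genes at 1 FPKM or more from 11559 to 12038. The fragment counts behind each value are not known.

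In the Notch pathway, a ligand on one cell binds a receptor on its neighbour, the receptor is cut, and its intracellular part enters the nucleus to switch on target genes together with the DNA-binding protein RBPJ. In the intestinal crypt this signal keeps progenitors on the absorptive path. The target HES1 represses *Atoh1*, and cells that escape the signal express *Atoh1* and become secretory cells, such as Paneth, goblet or enteroendocrine cells. Some of these carry the ligands DLL1 and DLL4 themselves. Tuft cells are counted below as a further type. *Gfi1*, *Spdef* and *Foxa3* act later, in the choice among secretory types and in their maturation. Because organoids are a mixture of these cells, fewer cells of a type and less RNA per cell cannot be told apart in the values that follow.

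The 250 bases before the start of 4 members whose levels differed between the 4-OHT DMSO and EtOH DMSO libraries are shown here, to set the DNA next to the genes that moved in opposite directions. *Atoh1*, *Foxa3* and *Notch2* were higher and *Dll4* was lower. The sequences are from RefSeq on GRCm38.p6, read 5′ to 3′ on the strand of the gene, and capitals mark an N-box (CACNAG on either strand), the kind of site that HES repressors bind.
Atoh1, chr6:64728875-64729124, plus strand: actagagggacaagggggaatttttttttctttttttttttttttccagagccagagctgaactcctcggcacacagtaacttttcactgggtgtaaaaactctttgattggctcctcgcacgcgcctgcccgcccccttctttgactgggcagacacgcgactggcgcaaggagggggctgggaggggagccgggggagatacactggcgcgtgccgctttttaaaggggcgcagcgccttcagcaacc
Foxa3, chr7:19023540-19023789, minus strand: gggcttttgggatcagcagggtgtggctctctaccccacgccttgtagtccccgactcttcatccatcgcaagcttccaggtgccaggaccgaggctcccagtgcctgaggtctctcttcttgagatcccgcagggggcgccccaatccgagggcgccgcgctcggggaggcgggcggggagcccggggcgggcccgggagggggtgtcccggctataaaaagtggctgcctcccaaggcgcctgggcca
Notch2, chr3:98013288-98013537, plus strand: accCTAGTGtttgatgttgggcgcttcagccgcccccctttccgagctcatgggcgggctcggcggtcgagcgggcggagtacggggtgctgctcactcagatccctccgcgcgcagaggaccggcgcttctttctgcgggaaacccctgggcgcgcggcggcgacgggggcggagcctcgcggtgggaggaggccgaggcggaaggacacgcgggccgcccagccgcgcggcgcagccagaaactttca
Dll4, chr2:119325534-119325783, plus strand: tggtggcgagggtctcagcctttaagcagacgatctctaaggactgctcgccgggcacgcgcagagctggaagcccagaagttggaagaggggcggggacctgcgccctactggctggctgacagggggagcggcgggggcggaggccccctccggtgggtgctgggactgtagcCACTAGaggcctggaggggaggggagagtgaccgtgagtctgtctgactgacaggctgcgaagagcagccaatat
Of the 10 members, 9 have a window in the RefSeq promoter table. 4 motifs were searched on both strands. The RBPJ motif GTGGGAA was in 5.42% of 32851 windows of the same length, and in 0 of the members' windows that start at the gene. An N-box was in 36.7% of all windows, and among the members in those of *Notch1* (CACAAG, 108 bases before the gene), *Notch2* (CTAGTG, 247 bases before) and *Dll4* (CACTAG, 75 bases before). CAGCTG, an E-box of the kind that ATOH1 binds, was in 13% of all windows and in those of *Dll1* (132 bases before) and *Jag1* (82 bases before). The E-box CAGATG was in 14.4% of all windows and in 0 of the members'. The windows of *Atoh1* and *Foxa3* hold 0 of these motifs. A match describes the letters of a window and not a bound site.

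The level of the 10 genes spanned a wide range, and because FPKM are scaled to transcript length these levels can be set side by side. *Hes1* was the most abundant member in all 7 libraries, and *Foxa3* and *Atoh1* followed it in the mean of every group. In EtOH DMSO the mean FPKM was 36.1 ± 4.26 (SD, n = 2) for *Hes1*, 8.96 ± 0.139 for *Foxa3* and 7.73 ± 1.54 for *Atoh1*, and the libraries of these genes did not overlap each other. *Dll1* (3.36), *Jag1* (3.35) and *Spdef* (2.83) came next with overlapping libraries. *Dll4* (1.82) overlapped *Spdef* and lay above *Notch1* (1.33) and *Notch2* (1.23), which overlapped each other, and *Gfi1* was lowest at 0.574. In 4-OHT DMSO the distance between the top members shrank, with means of 19.2 for *Hes1*, 16.3 for *Foxa3* and 15.8 for *Atoh1*, still without overlap. *Notch2* there rose in the order to stand above *Dll4*, and *Notch1* was last, overlapping *Gfi1*.

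**Figure D1:**
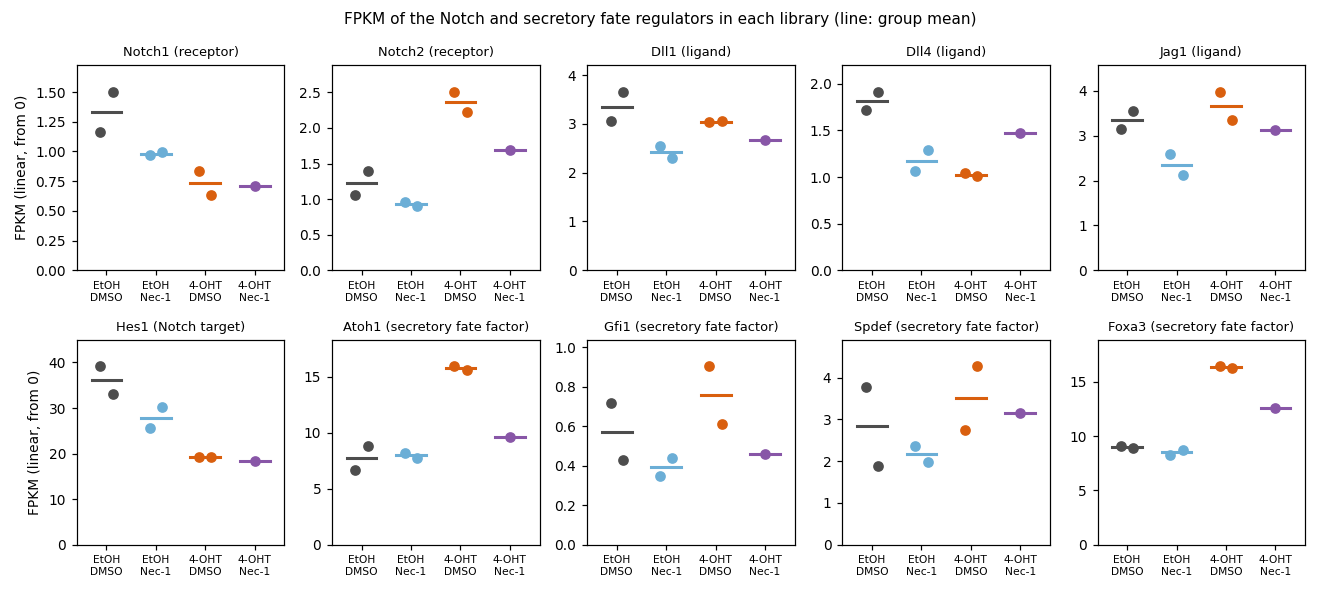
FPKM of the 10 genes in each of the 7 libraries, on linear axes that start at 0 and differ between panels. Each point is 1 library and each line the mean of its group. *Atoh1* and *Foxa3* sit highest in the 4-OHT DMSO libraries, *Hes1* sits highest in the EtOH DMSO libraries, and the points of *Spdef* and *Gfi1* overlap between EtOH DMSO and 4-OHT DMSO.

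The comparison of 4-OHT DMSO with EtOH DMSO asks how gene expression differs after induction of the recombinase. *Atoh1*, *Foxa3* and *Notch2* were higher, by 2.04, 1.82 and 1.93 times in mean FPKM. *Hes1* was lower at 0.532 times and *Dll4* at 0.564 times the EtOH DMSO mean. Of the 10 members, 5 passed the threshold of an adjusted p of 0.05 in limma with Benjamini-Hochberg adjustment, 4 did not and *Gfi1* was too low to be tested. Of all 12702 genes tested 41.2% passed, with 24.5% higher and 16.7% lower, so 5 of 9 members tested is near the share in the whole table. The members called numbered 3 without the first EtOH DMSO library or without the first 4-OHT DMSO library. Over all genes the median log2 fold change was 0.077. Centring each library on its median moved this median by -0.157, which changed the split of all calls from 3117 higher and 2120 lower to 2213 higher and 3187 lower. The 5 members called kept their direction and their call under that centring, and the centred values stand beside the main ones below. The libraries of the groups did not overlap for 7 members, with 3 higher and 4 lower in 4-OHT DMSO, and did not overlap for 71.6% of all genes (40.7% higher and 30.8% lower).

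Among the receptors, *Notch2* (ENSMUSG00000027878, chromosome 3, 98013538 to 98150367 on GRCm38.p6) had an FPKM of 1.06 and 1.39 in EtOH DMSO and of 2.51 and 2.22 in 4-OHT DMSO. Both 4-OHT DMSO libraries lay above both controls. Its log2 fold change, on the log2(FPKM + 1) scale used throughout, was 0.60 with an SE of 0.13 (95% interval 0.27 to 0.92, limma adjusted p = 0.0171), and 0.44 with median centring. The call is lost without the first EtOH DMSO library (limma adjusted p = 0.0655) or without the first 4-OHT DMSO library (limma adjusted p = 0.0594). *Notch1* (ENSMUSG00000026923, chromosome 2, 26457902 to 26503822), the other receptor, had values of 1.17 and 1.50 in EtOH DMSO and of 0.835 and 0.630 in 4-OHT DMSO. It reached the minimum of 1 FPKM in the EtOH DMSO libraries only, so that its higher group alone brought it into the test. Its log2 fold change of -0.43 (SE 0.14, 95% interval -0.78 to -0.08) had a limma adjusted p of 0.0568 and did not pass. With median centring the log2 fold change was -0.59 and passed (limma adjusted p = 0.0177). Because of that selection no direction is read from the test of *Notch1*. FPKM of *Notch2* divided by FPKM of *Notch1* within a library, a measure that no scaling of the library can move, was 0.907 and 0.929 in EtOH DMSO and 3.00 and 3.52 in 4-OHT DMSO. Within these libraries the receptors were about equal in the controls, and *Notch2* was the more abundant in 4-OHT DMSO. The ratio also moves with its denominator *Notch1*, so no direction of either receptor is read from it.

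Among the ligands, *Dll4* (ENSMUSG00000027314, chromosome 2, 119325784 to 119335666) had an FPKM of 1.72 and 1.91 in EtOH DMSO and of 1.04 and 1.01 in 4-OHT DMSO. The 4-OHT DMSO libraries lay close together and below both controls. The log2 fold change was -0.48 with an SE of 0.12 (95% interval -0.78 to -0.18, limma adjusted p = 0.027), and -0.63 with median centring. This call was the least steady of the 5. Without 1 library, limma adjusted p was 0.0649 and 0.0963 (EtOH DMSO 1 and 2), 0.054 and 0.0545 (EtOH Nec-1 1 and 2) and 0.0667 and 0.0768 (4-OHT DMSO 1 and 2). *Dll1* (ENSMUSG00000014773, chromosome 17, 15367354 to 15376932), the ligand of the same family, stood at 3.06 and 3.65 in EtOH DMSO and at 3.04 and 3.05 in 4-OHT DMSO, where the libraries of the groups nearly touch. Its log2 fold change was -0.10 (SE 0.11, 95% interval -0.39 to 0.18, limma adjusted p = 0.501). *Jag1* (ENSMUSG00000027276, chromosome 2, 137081451 to 137116520), a ligand of the other family, was at 3.14 and 3.56 in EtOH DMSO and at 3.97 and 3.35 in 4-OHT DMSO. Its groups overlapped, and its log2 fold change of 0.10 (SE 0.13, 95% interval -0.23 to 0.43, limma adjusted p = 0.577) turned to -0.058 with median centring. The ratio of *Dll4* to *Dll1* was 0.562 and 0.524 in EtOH DMSO and 0.343 and 0.330 in 4-OHT DMSO.

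*Hes1* (ENSMUSG00000022528, chromosome 16, 30065357 to 30067796), the repressor that carries the Notch signal to *Atoh1*, had an FPKM of 39.1 and 33.1 in EtOH DMSO and of 19.2 and 19.3 in 4-OHT DMSO. The 4-OHT DMSO libraries were nearly equal and far below both controls. The log2 fold change was -0.87 with an SE of 0.12 (95% interval -1.18 to -0.57, limma adjusted p = 0.00435), and -1.03 with median centring.

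*Atoh1* (ENSMUSG00000073043, chromosome 6, 64729125 to 64731245), the factor that commits a cell to the secretory lineage, was at 6.64 and 8.82 FPKM in EtOH DMSO and at 15.9 and 15.6 in 4-OHT DMSO. Its log2 fold change was 0.95 with an SE of 0.13 (95% interval 0.61 to 1.29, limma adjusted p = 0.00451), and 0.79 with median centring. *Foxa3* (ENSMUSG00000040891, chromosome 7, 19013283 to 19023539), a forkhead factor of the gut epithelium linked to goblet cells, was at 9.06 and 8.86 in EtOH DMSO and at 16.4 and 16.3 in 4-OHT DMSO. In both genes each 4-OHT DMSO library lay above each control. The log2 fold change of *Foxa3* was 0.80 with an SE of 0.079 (95% interval 0.60 to 1.00, limma adjusted p = 0.00159), and 0.64 with median centring. That SE was the smallest among the members tested.

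*Spdef* (ENSMUSG00000024215, chromosome 17, 27714446 to 27731003), an ETS factor needed for the maturation of goblet and Paneth cells, was at 3.78 and 1.89 in EtOH DMSO and at 2.75 and 4.27 in 4-OHT DMSO. Its groups overlapped, and its log2 fold change of 0.26 had the largest SE of the members tested, 0.29 (95% interval -0.45 to 0.97, limma adjusted p = 0.502). *Gfi1* (ENSMUSG00000029275, chromosome 5, 107716655 to 107725805), a zinc finger repressor that acts downstream of *Atoh1*, was below 1 FPKM in every library, with 0.717 and 0.430 in EtOH DMSO and 0.903 and 0.614 in 4-OHT DMSO. These libraries overlapped too, and with no filter on low values limma gave an adjusted p of 0.518.

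Set against each other within a library, FPKM of *Atoh1* divided by FPKM of *Hes1* was 0.170 and 0.266 (EtOH DMSO), 0.322 and 0.256 (EtOH Nec-1), 0.830 and 0.809 (4-OHT DMSO) and, in the single 4-OHT Nec-1 library, 0.524. The 3 libraries labelled 4-OHT lay above the 4 labelled EtOH. The ratio of *Foxa3* to *Hes1* followed the same order of groups, from 0.232 and 0.268 in EtOH DMSO to 0.857 and 0.844 in 4-OHT DMSO. The ratio of *Atoh1* to *Foxa3*, which both rose, showed no such separation, with 0.733 and 0.994 in EtOH DMSO and 0.969 and 0.959 in 4-OHT DMSO. These ratios were chosen after the values were seen and are given without a test.

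**Figure D2:**
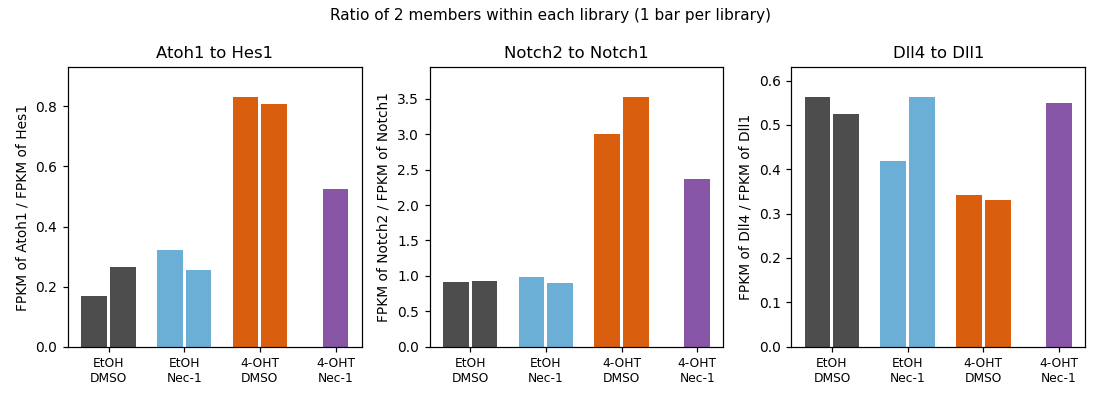
FPKM of 1 gene divided by FPKM of another within the same library, with 1 bar per library and axes that start at 0, for *Atoh1* to *Hes1*, *Notch2* to *Notch1* and *Dll4* to *Dll1*. The 4-OHT DMSO libraries have the highest *Atoh1* to *Hes1* ratios, 0.830 and 0.809, and the lowest *Dll4* to *Dll1* ratios, 0.343 and 0.330.

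Genes of the wider Notch pathway differed in both directions. In 7 lists of other Notch pathway genes, 35 of 53 genes were abundant enough to test between 4-OHT DMSO and EtOH DMSO. Of these, 8 were higher, 5 lower and 22 did not pass, with a median log2 fold change of 0.11 against 0.077 over all genes. The share called, 37.1%, is near the 41.2% of all genes. Of the 5 lower calls, 1 was a gene that met the filter only through the libraries where it is high. With median centring the split turned to 7 higher and 11 lower, and without the first EtOH DMSO library the calls fell to 7. The other receptors *Notch3* and *Notch4* stayed under 1 FPKM, and of the other ligands only *Jag2* was tested (log2 fold change -0.30, limma adjusted p = 0.103). None of the 4 glycosylation genes tested passed. With median centring *Jag2* (limma adjusted p = 0.0208) and some of the glycosylation genes were called lower. Of the 5 ubiquitin ligase and endocytosis genes tested 2 were lower, *Itch* (log2 fold change -0.51, SE 0.097) and *Mib2* (-0.40, SE 0.10).

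Of 8 genes tested for the proteases that mature and cut the receptors, 3 were higher and 0 lower. They were *Furin* (log2 fold change 0.70, SE 0.10), which cuts the receptor during its maturation, *Ncstn* (0.55, SE 0.093), a subunit of the γ-secretase complex, and *Adam17* (0.54, SE 0.13), which can shed the outer part. Of 11 genes of the transcription complex, 4 were higher and 1 lower. *Spen*, a corepressor that binds RBPJ, rose by a log2 fold change of 0.81 (SE 0.21), and *Maml1*, a coactivator, by 0.75 (SE 0.12). *Rbpj* was at 0.368 and 0.432 FPKM in EtOH DMSO and at 1.14 and 1.41 in 4-OHT DMSO (log2 fold change 0.70, SE 0.13, limma adjusted p = 0.011). It was also at 1.27 and 1.08 in EtOH Nec-1, so the EtOH DMSO libraries alone were low. RefSeq lists 3 pseudogenes of *Rbpj*, and how fragments shared with them were counted is not given in the sources used here. The lower call of that list was *Maml3* (log2 fold change -0.46, SE 0.14). It met the filter only through the EtOH libraries, where it is high, and no direction is read from it.

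Among the other Notch targets, 6 of 12 were tested, with 1 higher and 2 lower. *Nrarp*, a target that feeds back on the pathway, resembled *Hes1*, with an FPKM of 9.90 and 9.29 in EtOH DMSO and of 4.45 and 4.40 in 4-OHT DMSO. Its log2 fold change was -0.96 with an SE of 0.084 (limma adjusted p = 0.00119). In EtOH Nec-1 it was at 9.43 and 9.13, with 1 library within the range of EtOH DMSO and 1 just below, while *Hes1* was at 25.5 and 30.2, below both EtOH DMSO libraries. *Olfm4*, a stem cell gene that responds to Notch in the crypt, fell by 0.87 on the log2 scale (SE 0.24, limma adjusted p = 0.0349), and *Dtx3* rose by 0.73 (SE 0.14). *Hes5*, *Hes7*, *Hey1*, *Hey2*, *Heyl* and *Dtx1* were under 1 FPKM in every library.

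Among other transcription factors of the secretory lineage, 15 of 25 genes in 2 lists were tested between 4-OHT DMSO and EtOH DMSO. Of these, 9 were higher, 1 lower and 5 did not pass, a share of 60% higher against 24.5% of all genes. Both lists were chosen with earlier results of these data known, so the shares are a description and not a test. *Cbfa2t3* and *Insm1* are among the 9 and met the filter only through the libraries labelled 4-OHT, where they are high, which leaves 7 higher and 1 lower without them. With these 2 kept in, the 15 factors tested had a median log2 fold change of 0.47, where the whole table had 0.077. Both genes lie above 0.47, *Cbfa2t3* at 0.53 and *Insm1* at 0.78, and no median without them was calculated. With median centring 6 were higher and 1 lower, and without the first EtOH DMSO library 4 were higher and 1 lower. Leaving out either EtOH Nec-1 library gave 5 higher and 1 lower. *Foxa1*, the paralogue of *Foxa3*, went from 7.11 and 7.45 FPKM to 26.3 and 22.4, a log2 fold change of 1.61 (SE 0.11, limma adjusted p = 0.000687), above that of any of the 10 members. *Foxa2*, the third gene of that family, was at 1.50 and 1.23 in EtOH DMSO and at 2.03 and 1.06 in 4-OHT DMSO, with overlapping libraries. *Xbp1*, which drives the unfolded protein response in secretory cells, was the gene that fell, by 0.61 on the log2 scale (SE 0.088). *Cbfa2t3* had a log2 fold change of 0.53. In the enteroendocrine list, *Sox4* (log2 fold change 0.94, SE 0.10), *Neurog3* (0.90, SE 0.17), the factor that founds this lineage, and *Neurod1* (0.81, SE 0.15) had the largest rises.

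Markers of Paneth, goblet and enteroendocrine cells were higher together with these factors. Of all genes tested 24.5% were higher and 16.7% lower, and the marker lists too were chosen with earlier results known. Of the Paneth markers, 12 of 13 were higher in 4-OHT DMSO and 1 did not pass, and their summed FPKM was 9687 to 10809 in EtOH DMSO and 26884 to 27852 in 4-OHT DMSO. Of 11 goblet markers 10 were tested and 10 were higher, with sums of 1980 to 2174 and of 3320 to 3873, and 1 marker was at 0 in every library. With median centring 8 of these 10 were higher. Of 11 enteroendocrine markers 10 were tested and 10 were higher, with sums of 586 to 600.3 and of 1309 to 1487. Of 5 tuft markers tested, 1 was higher (0 with median centring) and 1 lower, the latter a gene that met the filter only through the EtOH libraries, and 2 of the 10 tuft markers were at 0 in every library. Their summed FPKM was 11.4 to 11.5 in EtOH DMSO and 9.23 to 11.9 in 4-OHT DMSO. Stem cell markers were lower in 4 and higher in 1 of 11 tested, with *Olfm4* in this list as well. 1 of these 4, *Lgr5*, met the filter only through the EtOH DMSO libraries. The share of stem cell markers called, 45.5%, is near the 41.2% of all genes. With median centring 5 stem cell markers were lower and 0 higher. Of 8 general epithelial markers 6 were higher and 0 lower, with a median log2 fold change of 0.395. With median centring 2 of them were higher and 1 lower. The enterocyte markers were lower in 7 and higher in 3 of 13, and lower in 8 and higher in 3 with median centring. The part of these cell types in the values of *Atoh1*, *Foxa3* and *Hes1* was not tested.

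**Figure D3:**
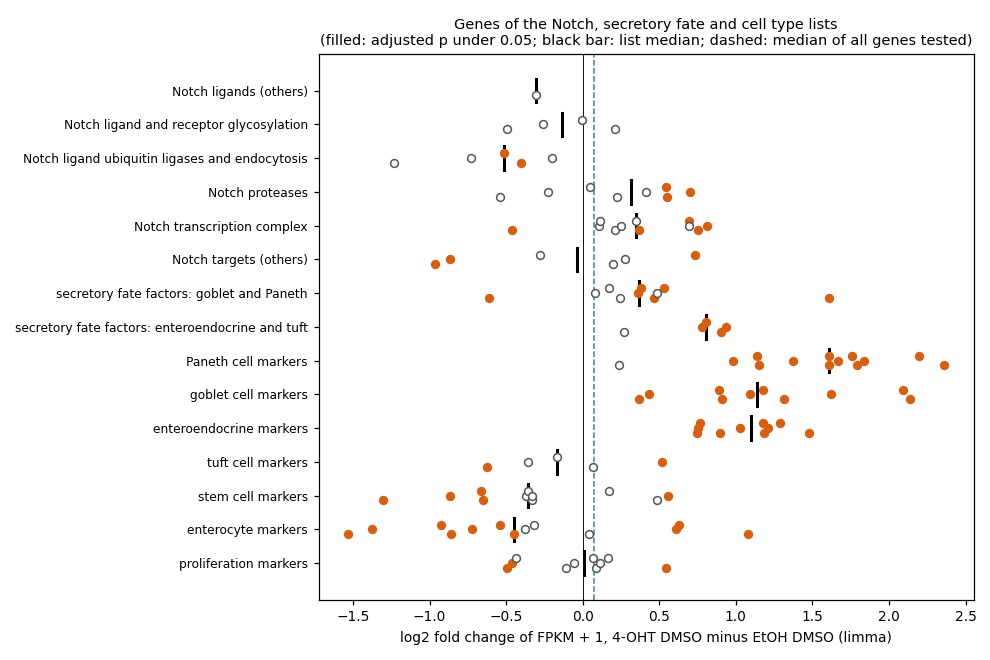
Log2 fold change of FPKM + 1 between 4-OHT DMSO and EtOH DMSO for each gene tested in the Notch, secretory fate and cell type lists, where filled points have a limma adjusted p under 0.05, the black bar is the median of a list and the dashed line the median of all genes. The Notch lists lie on both sides of 0, with 8 genes higher and 5 lower, and the goblet, Paneth and enteroendocrine lists lie to the right.

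Nec-1 alone, in organoids that received EtOH, left no member past the threshold. The comparison asks whether the inhibitor moves expression where the recombinase was not induced. It uses the EtOH DMSO libraries of the comparison above again. Of the 9 members tested 0 passed (limma, Benjamini-Hochberg), against 0.220% of all genes, and 4 members had an unadjusted p under 0.05, as did 13.3% of all genes. These 4 were *Dll1* (log2 fold change -0.35, 95% interval -0.63 to -0.06), *Dll4* (-0.37, -0.67 to -0.07), *Jag1* (-0.38, -0.71 to -0.05) and *Hes1* (-0.36, -0.67 to -0.06), that is the ligands and the target. Their limma adjusted p ran from 0.316 to 0.336. All genes together had a median log2 fold change of -0.094, and with median centring the same 4 values were -0.25, -0.27, -0.28 and -0.26.

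In FPKM, *Dll1* was at 2.54 and 2.30 in EtOH Nec-1, *Dll4* at 1.06 and 1.29 and *Jag1* at 2.58 and 2.12. Each of these libraries lay below both EtOH DMSO libraries of its gene. In all, 7 members lay below both EtOH DMSO libraries, 0 above both and 3 overlapped, where 39.1% of all genes lay below and 10.5% above. The receptors were at 0.969 and 0.994 (*Notch1*) and at 0.956 and 0.897 (*Notch2*), in the same ratio of about 1 as in the controls. The smallest log2 fold changes were those of *Atoh1* and *Foxa3*. *Atoh1* was at 8.21 and 7.73, within the range of its controls (log2 fold change 0.05, 95% interval -0.29 to 0.39, limma adjusted p = 0.909). *Foxa3* was at 8.28 and 8.76 (log2 fold change -0.066, 95% interval -0.26 to 0.13, limma adjusted p = 0.752), a value that turned to 0.033 with median centring. *Spdef*, at 2.37 and 1.97, and *Gfi1*, at 0.346 and 0.438, overlapped their controls. Of the 35 Notch pathway genes and the 15 secretory factors tested, 0 passed.

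**Figure D4:**
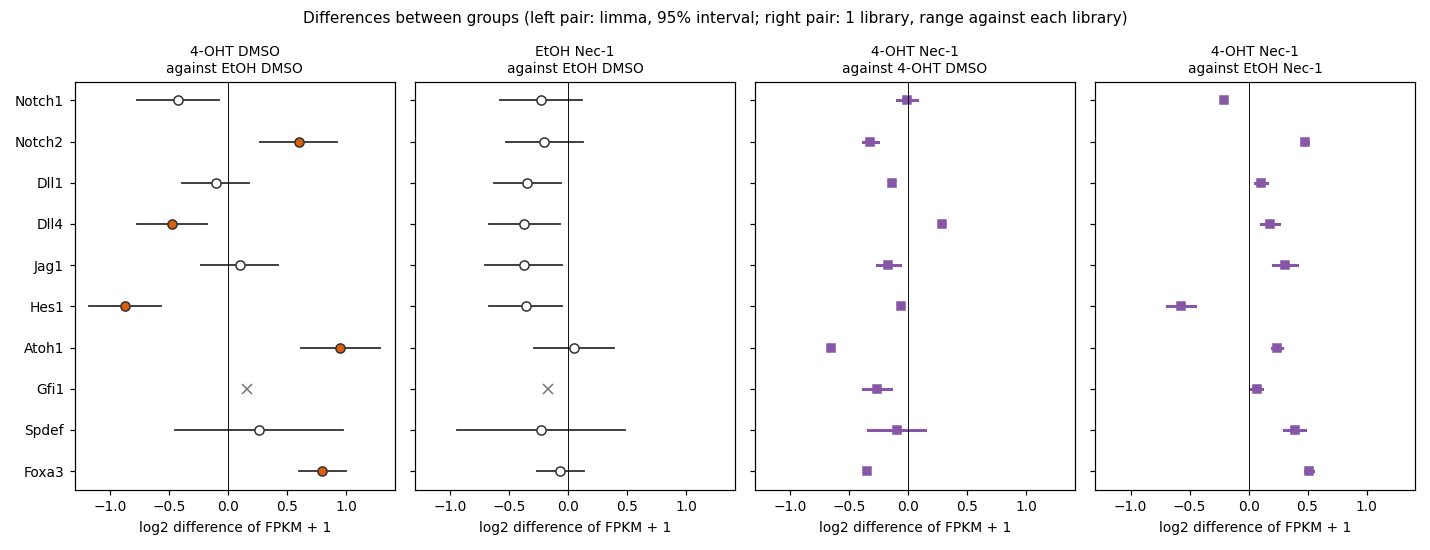
Differences on the log2(FPKM + 1) scale for the 10 genes in 4 comparisons. Circles with 95% intervals are limma estimates (filled where adjusted p is under 0.05, a cross for the untested *Gfi1*), and squares are the single 4-OHT Nec-1 library against the mean of the other group, with lines for its difference from each library. Between 4-OHT DMSO and EtOH DMSO 5 circles are filled, with Nec-1 in EtOH organoids 0, and *Dll4* is the gene to the right of 0 in the third panel.

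The remaining group, 4-OHT Nec-1, is 1 library, so that its values have no replicate check and no p-value. It was set beside the 4-OHT DMSO libraries to see how Nec-1 goes with expression after 4-OHT. *Atoh1* stood at 9.60 FPKM, against 15.9 and 15.6 in 4-OHT DMSO, a log2 difference of -0.66 from their mean (-0.55 with median centring). *Foxa3* was at 12.6 against 16.4 and 16.3 (-0.35), and *Notch2* at 1.69 against 2.51 and 2.22 (-0.32). These 3 genes, which were higher in 4-OHT DMSO than in EtOH DMSO, thus lay below both 4-OHT DMSO libraries and above all 4 EtOH libraries.

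For *Hes1* the libraries were close. It was at 18.3 against 19.2 and 19.3, a log2 difference of -0.066 that turned to 0.048 with median centring, and it lay below all 4 EtOH libraries. *Dll4* was at 1.47 against 1.04 and 1.01, the only member above both 4-OHT DMSO libraries (log2 difference 0.29, and 0.40 with median centring). *Notch1* at 0.711 and *Spdef* at 3.14 lay between the 4-OHT DMSO libraries. *Dll1* (2.67), *Jag1* (3.13) and *Gfi1* (0.459) lay below both. In sum 7 members were below both libraries, 1 above and 2 between, where 50.6% of 12036 genes were below and 24.5% above. This split depends on the scaling. Of the 8 members with a mean of at least 1 FPKM, 6 were below both and 1 above, and with median centring or upper quartile scaling 4 were below and 2 above, with *Hes1* above and *Jag1* between. Over all genes median centring gave 32.4% below and 41.3% above. No member was 1 log2 unit or more from both libraries, as 1.98% of genes were. *Olfm4*, the target named above, reached 3.42 FPKM against 15.7 and 9.22, a log2 difference of -1.56, while *Nrarp* was at 4.57 against 4.45 and 4.40.

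Paneth and goblet markers were also lower in the 4-OHT Nec-1 library. Of 13 Paneth markers, 13 were below both 4-OHT DMSO libraries (11 with median centring), where 50.6% of all genes were, and their summed FPKM was 20064. Of 10 goblet markers 8 were below both and 1 above (7 and 1 with median centring), with a sum of 2901. Enteroendocrine markers did not show this, with 4 of 10 below both and 2 above, a median log2 difference of -0.048 and, with median centring, 1 below and 6 above. Their sum was 1246. Of 8 epithelial markers 8 were below both 4-OHT DMSO libraries, and of 10 proliferation markers 9, with 0 above in each list. With median centring these counts were 6 and 8 below, and 0 above. The lower values were thus not particular to Paneth and goblet markers. Of 4 tuft markers 1 was below both and 0 above, with a median of 0.044. The part of these cells in the member values was not tested.

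Against the EtOH Nec-1 libraries, which also received the inhibitor, the 4-OHT Nec-1 library was higher in 8 members and lower in 2. Leaving out *Gfi1* and *Notch1*, whose mean was under 1 FPKM, 7 of 8 members were above both libraries and 1 below. Of the 11746 genes past that minimum, 49.9% were above and 38.8% below. This split too depends on the scaling. With median centring 5 of the 8 members were above, 1 below and 2 between, while 38.9% of genes were above and 49.8% below. Without centring, *Hes1* (log2 difference -0.58) and *Notch1* (-0.21) were the members below. *Foxa3* (0.51), *Notch2* (0.48), *Spdef* (0.39) and *Jag1* (0.31) had the largest positive differences, followed by *Atoh1* (0.24), *Dll4* (0.18), *Dll1* (0.10) and *Gfi1* (0.069). With median centring *Dll1* turned to -0.030 and lay, like *Dll4*, between the EtOH Nec-1 libraries. The centred differences were 0.11 for *Atoh1*, 0.17 for *Jag1*, 0.25 for *Spdef*, 0.34 for *Notch2*, 0.38 for *Foxa3* and -0.71 for *Hes1*. Side by side, the log2 values for 4-OHT against EtOH were 0.95 with DMSO and 0.24 with Nec-1 for *Atoh1* (0.79 and 0.11 with median centring), and 0.80 and 0.51 for *Foxa3* (0.64 and 0.38). Whether these differ was not tested.

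Over all 7 libraries, the genes with the profile closest to *Atoh1* among 12701 others were *Add1* (root mean square difference of centred log2 values 0.076), *Cfb* (0.0784) and *Gm5469* (0.0857). *Add1* was at 5.80 and 8.89 FPKM with EtOH and DMSO, at 13.4 in each 4-OHT DMSO library and at 8.70 in the 4-OHT Nec-1 library. As for *Atoh1*, the 4-OHT DMSO libraries were highest and the first EtOH DMSO library lowest. Unlike *Atoh1*, *Add1* was lower in the 4-OHT Nec-1 library than in the second EtOH DMSO library. Closest to *Hes1* were *Pitpna* (0.0697), *Rack1* (0.0731) and *Tsc22d3* (0.0842). *Tsc22d3* was at 6.82 and 6.85 FPKM with EtOH and DMSO, at 4.51 and 5.75 with EtOH and Nec-1, at 3.31 and 3.74 with 4-OHT and DMSO, and at 3.33 with 4-OHT and Nec-1. With 7 libraries in 4 groups many genes can share such a profile, and the likeness is a description.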

How the data were processed

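RNA-seq of 7 mouse organoid libraries was used, and 2 CUT&Tag samples were not analysed here. The authors deposited FPKM per Ensembl gene, without counts. Libraries were made with an NEBNext Ultra kit and sequenced on an Illumina HiSeq X instrument. The submitters' processing notes name HISAT2 2.1.0, StringTie 1.3.3b and mm10, without roles. Of 54838 identifiers, 54723 had a symbol and 26643 were at 0 in every library. Libraries given again in another file (2 columns, largest difference 0.0147%) were used once, and 0 columns were left unmapped.

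Groups with 2 libraries were compared with limma 3.58.1 (R 4.3.3, mean-variance trend) on log2(FPKM + 1) for the 12702 genes that reached 1 FPKM in 2 or more libraries, with 1 mean per group over 7 libraries, 3 residual degrees of freedom, two-sided tests and Benjamini-Hochberg adjustment over all genes at 0.05. The pseudocount of 1 shrinks the log2 differences of genes near 1 FPKM. The 4-OHT Nec-1 library was compared without a test over genes whose mean FPKM in the libraries compared was 1 or more, and a gene counted as past the fold threshold at 1 log2 unit from both libraries. Relative depth, from the spacing of the lowest FPKM, was 0.85 to 1.03 of the first EtOH DMSO library, and replicates correlated across the 12702 genes with Pearson's r of 0.965 to 0.989. The fits were also run on simulated data with few changed genes and no shift of whole libraries. The real data differ in both, so that run is no check of the calls given here.

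The members and lists were chosen with earlier results of these data known. Named are the 10 members, *Mettl3*, up to 3 genes per Notch or secretory list with the largest change past the threshold, and the 3 genes most like *Atoh1* and *Hes1* by root mean square difference of centred profiles. *Jag2*, *Maml3*, *Foxa2*, *Insm1*, *Lgr5*, *Cd68*, *Itgam*, *Ptprc* and the genes under 1 FPKM were named after their values were seen, as were the ratios. Alternatives were pseudocounts, filters, scaling, no trend, a replicate block, only the 4 libraries of a comparison, and each library left out. Python 3.11.15, pandas 2.3.3, numpy 2.4.6 and matplotlib 3.10.9 were used. Promoter windows are from RefSeq (GRCm38.p6).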

Additional observations from a re-analysis of the deposited data

Results flagged for a closer look

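*Dll4* moved in opposite directions with Nec-1 in the groups. In organoids that received EtOH its log2 difference was -0.37, with both Nec-1 libraries below both DMSO libraries. It did not pass there (limma adjusted p = 0.316). In organoids that received 4-OHT it was 0.29, where the 1 Nec-1 library, which has no replicate, lay above both DMSO libraries. The difference between these values was not tested. Of 12702 genes, 1205 (9.49%) showed the same kind of opposite movement. With median centring the values were -0.27 and 0.40.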

How the results depend on the processing

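Between 4-OHT DMSO and EtOH DMSO, *Hes1*, *Atoh1* and *Foxa3* kept their call in all 16 alternatives, with limma adjusted p of at most 0.0236, 0.0218 and 0.0116. *Dll4* lost it in 8 of 16 and *Notch2* in 3 of 15. *Notch1*, which met the filter only through its higher group, gained it in 3 of 13. The members called were 3 with no filter on low values (*Dll4* then at an adjusted p of 0.0628 and *Notch2* at 0.051) and 3 to 5 with 1 library left out, where 3 were called without the first EtOH DMSO or the first 4-OHT DMSO library, and 4 with only the 4 libraries of the comparison. Genes called numbered 3650 to 5239 with 1 library left out. A library left alone in its group is assumed to vary like the other groups.

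*Jag1* turned to -0.058 with median centring and -0.029 with upper quartile scaling, and *Spdef* ranged from -0.10 to 0.62 with 1 library left out. With Nec-1 in EtOH organoids, *Foxa3* turned to 0.033 with median centring and 0.031 with upper quartile scaling, and with 1 library left out *Atoh1* ranged from -0.13 to 0.23 and *Spdef* from -0.59 to 0.13. The 28 genes called there became 8 with no filter, 43 with upper quartile scaling, 79 with only the 4 libraries and 9 to 79 with 1 library left out (79 without either 4-OHT DMSO library, 9 to 14 without any one of the EtOH libraries), and 0 members were called in any. For the 4-OHT Nec-1 library, against 4-OHT DMSO *Hes1* turned to 0.048 and 0.054 under these scalings, and *Dll1* to -0.030 against EtOH Nec-1 with median centring. The 238 genes past the fold threshold became 378 with a pseudocount of 0.1 and 421 to 772 with 1 library left out (772 without the first 4-OHT DMSO library, 421 without the second), and the 726 against EtOH Nec-1 became 1132 with a pseudocount of 0.1 and 433 at a mean of at least 5 FPKM. The cause of these changes was not tested.

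Libraries with the same replicate number did not deviate together (r of -0.040, 0.006 and -0.012 across 12702 genes). Whether the numbers pair libraries by culture or animal is not given in the sources, and these correlations cannot settle it. With the replicate block, 4697 and 19 genes were called in the tested comparisons, and 5 and 0 members. Depth is unknown in counts, and *Notch1*, *Notch2*, *Dll4* and *Gfi1* had the lowest mean FPKM of the members over all libraries. The largest SE among the members tested between 4-OHT DMSO and EtOH DMSO was that of *Spdef*, 0.29.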
